A study of Mus musculus with 6 samples.

Results

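Genes that take up, store, export and recycle iron and heme were read in the fat pad along the epididymis of Pparg ldi/+ and wild-type mice. The set was 10 genes chosen by name, with earlier results of these data known. They were Tfrc, Trf, Slc11a2 and Steap4 (uptake), Fth1 and Ftl1 (storage), Slc40a1 and Cp (export), Slc11a1 (phagosomal transport) and Hmox1 (heme breakdown). Every probe set that the platform annotation ties to 1 of these symbols and no other was used, which gave 26 of the array's 45101 probe sets. They cover 8 of the 10 genes. Ftl1 and Trf had no such probe set, because all 3 probe sets that name Ftl1 and the 1 that names Trf also name another gene, so neither has a value here.

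The mice were 10-week-old males on a mixed C57BL6;129Sv background, 3 with 1 ldi allele of Pparg beside a wild-type allele and 3 litter-matched wild types with no ldi allele. Pparg encodes the nuclear receptor that directs fat cell differentiation, and the labels tie the ldi allele to lipodystrophy, a loss of fat tissue. Whole epididymal white adipose pads were used, with RNA of a single mouse on each Affymetrix MOE430v2.0 array and no other treatment in the labels. What the ldi allele changes in the gene, and whether it acts in all cells, is unknown here. Wild-type arrays 1 to 3 and Pparg ldi/+ arrays 1 to 3 are named by the number in their titles. The question addressed is how transcripts of the fat pad differ when 1 Pparg allele is ldi.

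Iron travels in plasma bound to transferrin and enters cells through the transferrin receptor; in the endosome it is reduced by STEAP enzymes and moved to the cytosol by DMT1. Cells store it in ferritin, a shell of heavy and light chains, and release it through ferroportin, helped by copper oxidases that make it fit for transferrin. Macrophages of fat take part in this traffic, since they engulf dying cells, break down their heme with heme oxygenase and return the iron to the tissue or keep it.

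Signals below are the deposited intensities after each array was scaled to a common trimmed mean, and log2 differences are those of log2(signal + 32), Pparg ldi/+ minus wild type, which understates the change of dim genes. A gene was read through its brightest suitable probe set. Rose and fell mean a limma adjusted p under 0.05 over all 11201 genes tested. The scaling factors were 2.12 to 2.49, so the arrays were close before scaling; with 3 arrays a group, precision is limited. Pparg itself fell, with a mean of 4605 ± 341 on the wild-type arrays and 1781 ± 104 on the others (SD, n = 3; log2 -1.35, limma adjusted p = 1.04e-05). Adipocyte markers, which check the labelled tissue, were bright on every array. Macrophage markers were higher in Pparg ldi/+, where 24 of 25 rose (the other, Mertk, was at -0.19). Their summed signal was 54874 to 72127 on the wild-type and 157665 to 161390 on the Pparg ldi/+ arrays. In Pparg ldi/+ arrays 1 and 2, but not in array 3, markers of epididymal epithelium were high: the 14 with a probe set summed to 23659 and 32309 there, to 915 in array 3 and to 872 to 1550 in wild type. Array 3 alone is given for calls that it ended. In whole tissue, a change in the number of cells of a type and a change in RNA per cell cannot be told apart.

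Promoter sequences from RefSeq (GRCm38.p6) were found for 6 of the 10 genes, with 9 start sites. Those of the 2 called members with a single listed start are shown, because Slc11a1 rose and Steap4 fell. Each is the 250 bases before the start, 5′ to 3′ on the gene's strand. Slc11a1 lies at chr1:74374953-74375202 (plus strand) and Steap4 at chr5:7960222-7960471 (plus strand). Capitals mark matches, on either strand, to 4 motifs searched: the antioxidant response element core TGACNNNGC, the C/EBP motif TTGCNNAA, the STAT motif TTCNNNGAA and the PPAR direct repeat by name.
Slc11a1 promoter: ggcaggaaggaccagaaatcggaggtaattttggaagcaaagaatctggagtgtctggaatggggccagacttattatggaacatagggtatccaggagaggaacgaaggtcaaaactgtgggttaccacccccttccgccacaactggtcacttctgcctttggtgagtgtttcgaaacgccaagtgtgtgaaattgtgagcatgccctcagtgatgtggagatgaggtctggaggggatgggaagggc
Steap4 promoter: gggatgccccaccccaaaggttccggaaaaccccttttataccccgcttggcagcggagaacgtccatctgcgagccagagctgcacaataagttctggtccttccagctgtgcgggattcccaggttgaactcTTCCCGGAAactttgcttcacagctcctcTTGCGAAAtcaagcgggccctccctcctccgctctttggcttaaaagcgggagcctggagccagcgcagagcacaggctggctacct
The Steap4 window holds the STAT match TTCCCGGAA, 116 to 108 bases before the start, and the C/EBP match TTGCGAAA, 87 to 80 bases before it. The Slc11a1 window holds no match, which says only that these letters are not in it. Among 32851 promoter windows of this length, 10.2% hold the antioxidant core, 9.56% the C/EBP motif, 7.02% the STAT motif and 0.03% the PPAR repeat. The other windows with a match were 1 of the 2 of Cp (C/EBP TTTTGCAA on the minus strand) and 1 of the 2 of Fth1 (C/EBP, 2 matches). None of the 9 windows (0) held the antioxidant core or the PPAR repeat.

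All 8 genes with a value were bright enough to be tested. Hmox1, Slc40a1, Slc11a1 and Cp rose, Steap4 fell, and Fth1, Tfrc and Slc11a2 did not pass. That is 5 of 8, or 62.5%, where 32.7% of all tested genes were called (16.3% rose and 16.4% fell). As the members were chosen with earlier results of these data known, this share cannot be read as an excess. The median log2 difference was 0.45 over the 8 genes and -0.0043 over all genes tested. The groups did not overlap in 4 of the 8 genes, 47.6% of all genes having non-overlapping groups. An exact two-sided permutation test of 3 against 3 arrays cannot go below p = 0.1, and it gave 0.1 for these 4 genes (Hmox1, Slc40a1, Slc11a1 and Steap4). The labels name separate mice but not separate cages or extraction days, so the p-values measure the spread between these mice. Litter was not part of the fit, although the wild types were litter-matched.

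**Figure D1:**
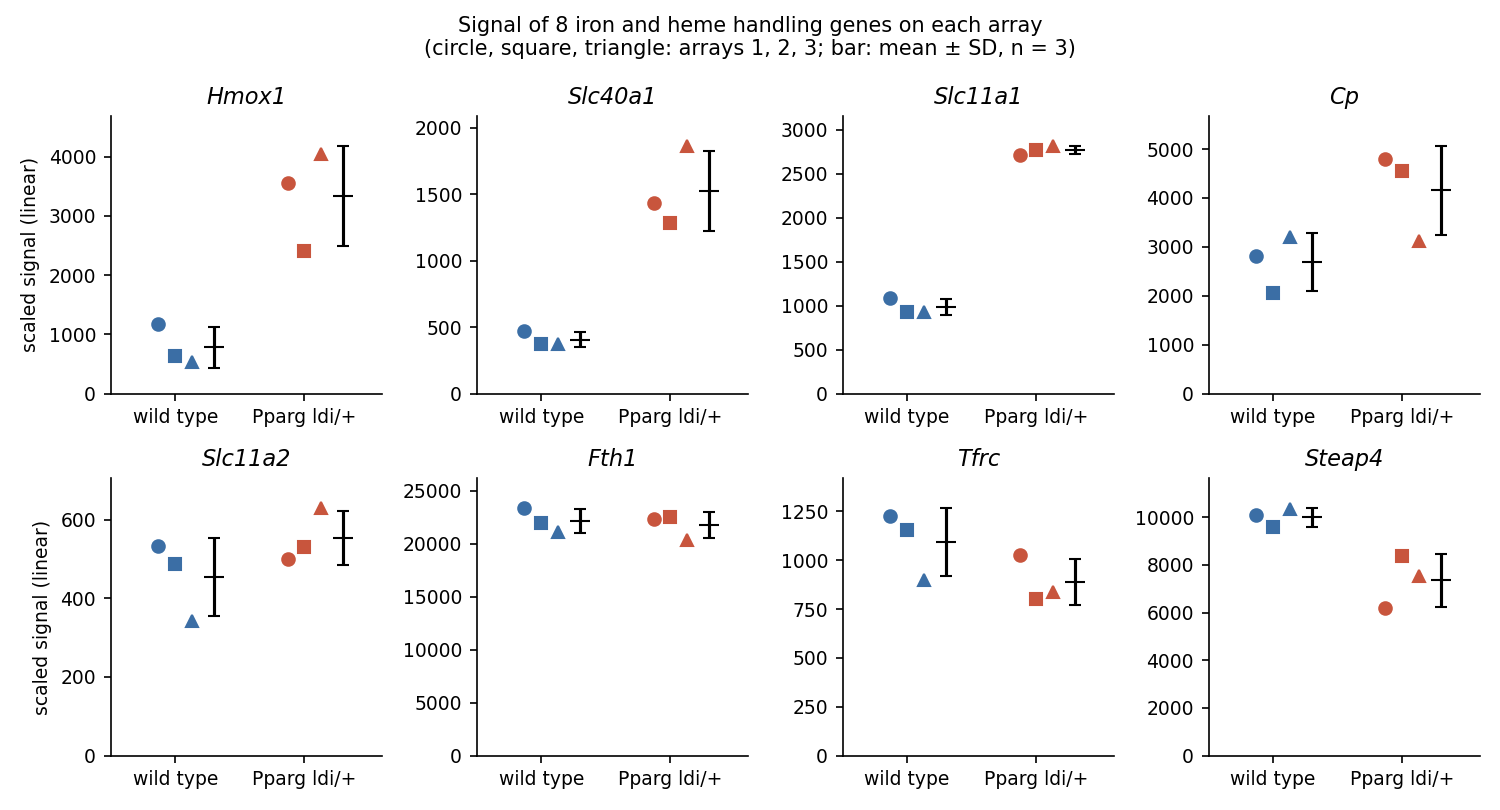
Scaled signal (linear axis from 0) of the 8 genes on the 6 arrays, each through the probe set that stands for the gene; circles, squares and triangles are arrays 1, 2 and 3, blue for wild type and red for Pparg ldi/+, and the black bars are the mean ± SD (n = 3). Hmox1, Slc40a1 and Slc11a1 are higher on all Pparg ldi/+ arrays, Steap4 is lower on all of them, and Cp is high on Pparg ldi/+ arrays 1 and 2 only.

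Hmox1 encodes heme oxygenase 1, the inducible enzyme that opens heme into biliverdin, carbon monoxide and iron. Its signal was 1181, 637 and 531 on wild-type arrays 1 to 3 and 3549, 2405 and 4052 on Pparg ldi/+ arrays 1 to 3. Every Pparg ldi/+ array lay above every wild-type array, the highest being array 3, and wild-type array 1 stood above the other two of its group. It differed by 2.10 on the log2 scale (limma adjusted p = 0.000695, SE 0.285, 95% confidence interval 1.45 to 2.74), a 4.27-fold rise and the largest of the 8 genes. It ranged from 1.87 to 2.42 when single arrays were left out, and was 2.41 for array 3 alone. Hmox1 has a single probe set, so no second reading of it exists on this array.

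Slc40a1 encodes ferroportin, the iron exporter of the cell surface. It gave 471, 372 and 373 on the wild-type arrays and 1433, 1282 and 1863 on the Pparg ldi/+ arrays. The groups lay far apart and array 3 was again the highest. It differed by 1.82 on the log2 scale (limma adjusted p = 5.29e-05, SE 0.154, 95% confidence interval 1.47 to 2.18), a 3.54-fold rise. A second probe set gave 352, 375 and 368 in wild type and 924, 940 and 1246 in Pparg ldi/+, a log2 difference of 1.42 (adjusted p = 8.23e-05 in the limma fit over all probe sets). Both probe sets therefore put the gene higher, with the order of array 3 above arrays 1 and 2 kept.

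Slc11a1 encodes NRAMP1, a metal transporter that macrophages and neutrophils place in the phagosome membrane to withdraw iron from engulfed material. C57BL/6 mice are known to carry a loss-of-function allele of it and 129 strains a functional allele; the probe set does not tell the alleles apart. Its signal was 1088, 925 and 931 in wild type and 2716, 2774 and 2812 in Pparg ldi/+. The groups lay far apart, with SDs of 92.6 and 48.3 around means of 981 and 2767 (n = 3 each). It differed by 1.47 on the log2 scale (limma adjusted p = 9.28e-06, SE 0.0887, 95% confidence interval 1.27 to 1.67), a 2.77-fold rise, and it stayed between 1.43 and 1.54 with any single array left out.

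Macrophage markers moved in the same direction as these 3 genes. Their mean log2 difference over the 25 markers was 1.59, beside 2.10 for Hmox1, 1.82 for Slc40a1 and 1.47 for Slc11a1. Single markers spread from -0.19 to 3.26, a range that holds all 3 genes. None of the 25 markers was near 0 on the arrays. In a comparison added after the values were seen, the mean log2 of the markers was taken off each array. The difference left was 0.51 for Hmox1 and 0.23 for Slc40a1, with overlapping groups (exact permutation p = 0.2 for each). For Slc11a1 it was -0.12, with an SD of 0.108 over the wild-type and 0.0038 over the Pparg ldi/+ arrays. The groups did not overlap (exact permutation p = 0.1) but nearly met, at -0.685 on wild-type array 1 and -0.693 on Pparg ldi/+ array 2. How much of each rise goes with the markers was not tested. Neutrophils also carry Slc11a1, but 7 of 10 neutrophil markers were too dim to be tested, and of the 3 tested Csf3r rose while S100a8 and Mmp9 were at -0.26 and 0.17.

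Cp encodes ceruloplasmin, the copper oxidase that converts exported iron to the form transferrin binds. The probe set that stands for it gave 2810, 2053 and 3205 on the wild-type arrays and 4787, 4561 and 3112 on the Pparg ldi/+ arrays. Arrays 1 and 2 of Pparg ldi/+ were high and array 3 lay inside the wild-type range, so the groups overlapped. It differed by 0.62 on the log2 scale (limma adjusted p = 0.0398, SE 0.196, 95% confidence interval 0.17 to 1.07). With arrays 1 and 2 of Pparg ldi/+ left out it was 0.23 (limma adjusted p = 0.588), and without array 3 it was 0.98. The call ended without wild-type array 1 (0.66) or array 2 (0.44) and without Pparg ldi/+ array 1 (0.51) or array 2 (0.54).

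The 8 probe sets of Cp went from 0.011 to 0.97, and 3 of the 8 rose in the fit over all probe sets. The set with the largest difference gave 1803, 1206 and 1723 in wild type and 3487, 3868 and 2128 in Pparg ldi/+ (log2 0.97, limma adjusted p = 0.0113). The set with the smallest gave 1205, 1064 and 1610 against 1439, 1251 and 1174. Arrays 1 and 2 of Pparg ldi/+ were both above every wild-type array in 5 of the 8 probe sets. Array 3 lay inside the wild-type range in 6 of the 8, and above it in 2, and its distance from the wild-type mean went from -0.16 to 0.45. The arrays with high Cp are those with epididymal transcripts, and the part of those transcripts in the Cp signal was not tested. Macrophage markers were higher on all Pparg ldi/+ arrays, and relative to their mean log2 Cp stood at -0.97, with groups that did not overlap (exact permutation p = 0.1). On array 3, whose epididymal sum lay within the wild-type range, the log2 difference of Cp was 0.23. A single array cannot settle whether Cp differs there, and the cause was not tested.

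**Figure D2:**
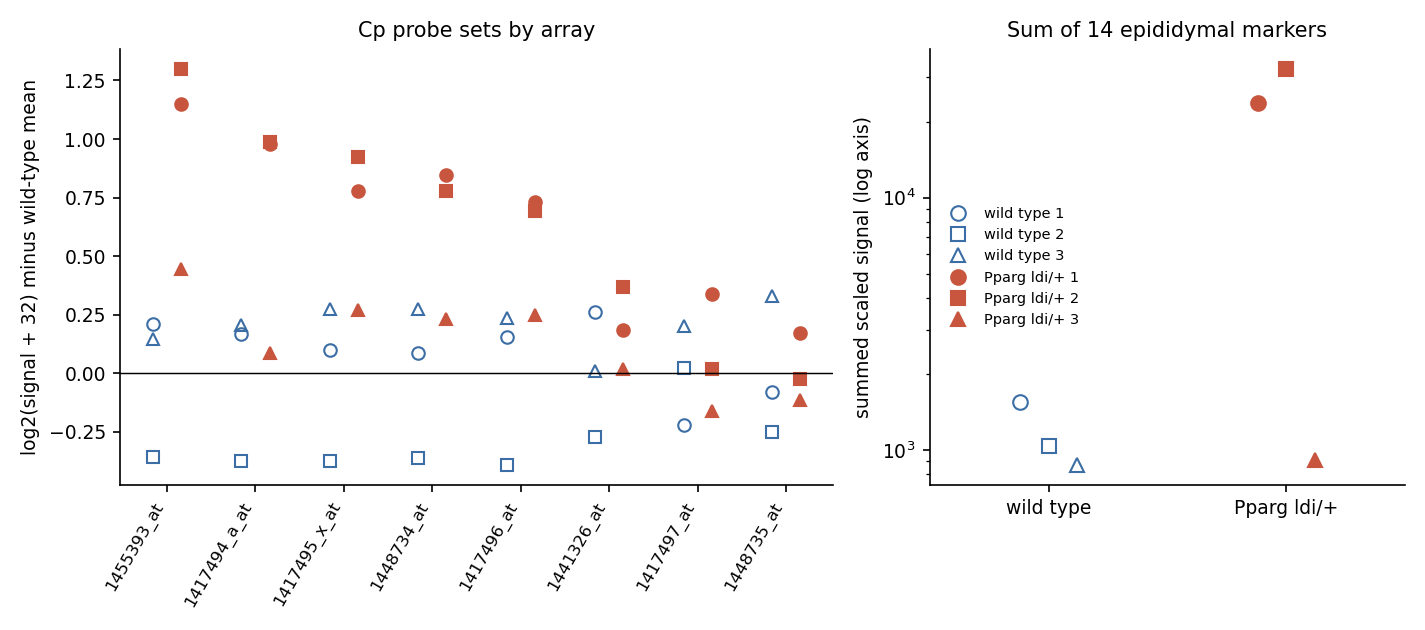
Left, the 8 Cp probe sets with each array's log2(signal + 32) minus the wild-type mean (open blue, wild type; filled red, Pparg ldi/+; circles, squares and triangles for arrays 1, 2 and 3). Right, the summed scaled signal of 14 epididymal markers on a log axis; Pparg ldi/+ arrays 1 and 2 stand at 23659 and 32309, and array 3 at 915 is within the wild-type range of 872 to 1550.

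Steap4, a reductase of iron and copper at the cell surface and in endosomes that is strongly expressed in fat, was the member that fell. Its signal was 10083, 9575 and 10337 on the wild-type arrays and 6177, 8368 and 7527 on the Pparg ldi/+ arrays. All 3 Pparg ldi/+ arrays lay below all wild-type arrays. It differed by -0.45 on the log2 scale (limma adjusted p = 0.0117, SE 0.107, 95% confidence interval -0.69 to -0.21), a 1.37-fold fall. The dimmer probe set gave 6553, 5488 and 4923 in wild type and 2993, 3709 and 3102 in Pparg ldi/+, a larger difference of -0.78 (limma adjusted p = 0.00135 over all probe sets). With array 3 alone the value was -0.41 and did not pass (limma adjusted p = 0.0641).

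Adipocyte markers fell in 9 of 12, and their mean log2 difference of -0.94 was beyond that of Steap4. Their summed signal was 224587 to 251100 in wild type and 141774 to 153591 in Pparg ldi/+, and none of the 12 was near 0. With the markers' mean log2 taken off each array, a comparison also added after the values were seen, Steap4 stood 0.49 higher in Pparg ldi/+, with groups that did not overlap (exact permutation p = 0.1). Relative to the mean of these markers Steap4 was thus higher, and in signal it was lower. The 12 markers spread from -2.00 to -0.15. Fabp4, Lpl, Cd36, Dgat2 and Pnpla2 changed less than Steap4, and the rest changed more. Whether the markers follow the number of adipocytes was not tested. Endothelial markers fell in 9 of 13 (1 rose), with a median log2 difference of -0.87 and sums of 27483 to 31240 against 15439 to 18549, and mesothelial markers fell in 7 of 10, with a median of -0.71 and sums of 12645 to 15844 against 7577 to 8326. Stromal progenitor markers rose in 3 and fell in 3 of 11. The part of these falls in that of Steap4, and in those of the other genes that fell, was not tested.

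Fth1 encodes the ferritin heavy chain, which oxidises iron as it is stored. Its signal was 23350, 21899 and 21123 in wild type and 22355, 22521 and 20302 in Pparg ldi/+. The groups overlapped, with a log2 difference of -0.026 (95% confidence interval -0.18 to 0.13, limma adjusted p = 0.802), so a signal change beyond about that interval was not seen. Fth1 ranked 20 in brightness among the 11201 genes. Whether so bright a signal still follows the amount of RNA was not tested. Its second probe set, of a type that can match several transcripts, differed by -0.11 (limma adjusted p = 0.288). Processed copies of ferritin genes exist in the genome, and their share in these signals is unknown.

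Tfrc encodes the transferrin receptor. The probe set that stands for it gave 1226, 1157 and 898 in wild type and 1024, 801 and 838 in Pparg ldi/+. The groups overlapped, and the log2 difference of -0.29 (95% confidence interval -0.61 to 0.04) did not pass (limma adjusted p = 0.159). Without wild-type array 3, the lowest of its group, it was -0.42 and passed (limma adjusted p = 0.0399). A second tested probe set differed by -0.063, and the third was too dim to be tested, with signals of 14.7 to 115 over the 6 arrays. The array carries 3 further Tfrc probe sets as RNA quality controls, which were left out of the fits. The set near the 3′ end gave 182, 180 and 137 in wild type and 138, 124 and 170 in Pparg ldi/+, and the middle and 5′ sets were between 8.04 and 73.4. No Tfrc probe set had groups that stood apart.

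Slc11a2 encodes DMT1, which moves iron out of endosomes. Its brightest probe set gave 532, 488 and 342 in wild type and 499, 530 and 629 in Pparg ldi/+, with overlapping groups and a log2 difference of 0.28, which missed the threshold (limma adjusted p = 0.246). In 2 of its other probe sets every Pparg ldi/+ array was above every wild-type array. The first gave 280, 299 and 228 against 423, 380 and 400 (log2 0.53, limma adjusted p = 0.0192), and the second 377, 343 and 342 against 438, 531 and 465 (log2 0.40, limma adjusted p = 0.0380). The fourth was too dim to be tested. DMT1 is known to be made in forms that differ in their ends, and which form each probe set reads was not determined here.

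Counted over probe sets, 21 of the 26 were tested, 3 being controls and 2 too dim. Of the 21, 9 rose, 2 fell and 10 did not pass, so that 52.4% were called where 29.0% of all 22519 tested probe sets were. The groups did not overlap in 10 of the 21, and in 44.4% of all tested probe sets. Probe sets of a gene share its transcripts and are not replicates.

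**Figure D3:**
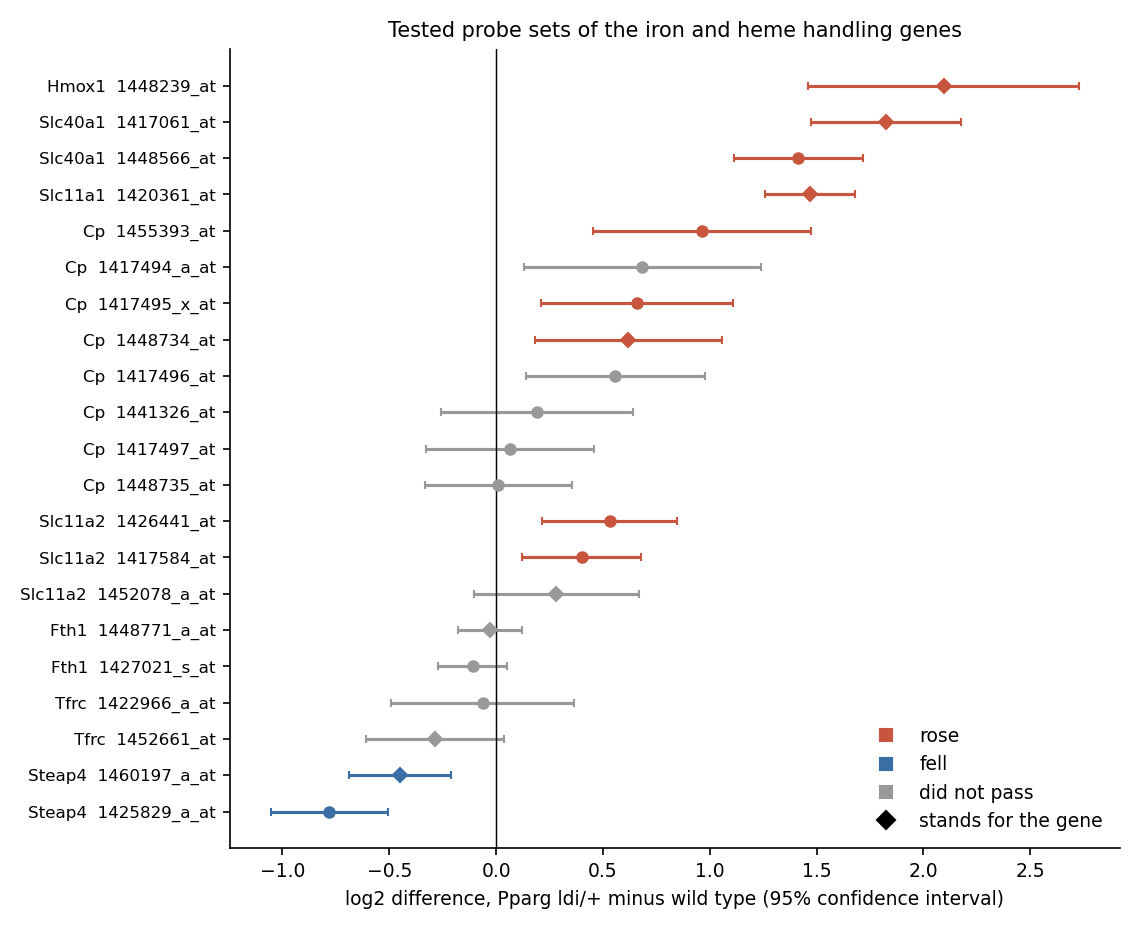
Log2 difference (Pparg ldi/+ minus wild type) with its 95% confidence interval for the 21 tested probe sets, grouped by gene; red rose, blue fell, grey did not pass in the fit over all probe sets, and diamonds mark the set that stands for the gene. Both sets of Slc40a1 are above 1.4, those of Cp spread from 0.011 to 0.97, and both sets of Steap4 are below 0.

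The wider pathway was read through 9 lists of 97 genes in all, members included. Of 80 tested, 21 rose and 18 fell, which is 48.8%, beside 32.7% of all tested genes. The median log2 difference was -0.028. Without the members it was 17 and 17 of 72. With Pparg ldi/+ arrays 1 and 2 left out, 6 rose and 8 fell, and 14.5% of all genes were called. The list counts below are to be read beside the shares over all tested genes, of which 16.3% rose and 16.4% fell. The lists, like the members, were chosen with earlier results of these data known. No set test was run, and nothing particular to a list is drawn from these counts.

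Heme breakdown was the list in which most genes rose. Of 7 tested, 6 rose, with a median of 0.43. Besides Hmox1 they included Blvra, which turns biliverdin into bilirubin (1863 ± 275 to 3490 ± 400, SD, n = 3, log2 0.90, limma adjusted p = 0.000856). Nfe2l2, which encodes NRF2, a regulator of Hmox1, was also higher (log2 0.40, limma adjusted p = 0.00213). So was Bach1, a further regulator on this list (log2 0.61, limma adjusted p = 0.0141, and 0.58 with array 3 alone). Hmox2 (0.35) and Blvrb (0.43) rose too, and Keap1 (-0.22) did not pass. With array 3 alone 2 of the 7 passed at a median of 0.43, and Nfe2l2 at 0.39 did not. Nfe2l2 did not pass with the mean of its probe sets (0.30). Among 6 other NRF2 target genes tested, 2 rose, and the median was 0.047. The 2 were Srxn1, a sulfiredoxin (log2 0.92, limma adjusted p = 0.000636), and Txnrd1, a thioredoxin reductase (log2 0.38, limma adjusted p = 0.00767), whose call ended with array 3 alone (0.41).

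In heme synthesis 4 of 13 fell, with a median of -0.29. Alad, the enzyme that joins aminolevulinate into porphobilinogen, went from 2704 ± 175 to 930 ± 211 (SD, n = 3; log2 -1.53, limma adjusted p = 0.00012). With the mean of its probe sets Alad was at -0.77. Abcb6, a porphyrin transporter, fell by 0.85 on the log2 scale (limma adjusted p = 0.00401), and its call ended with array 3 alone (-0.70). Among genes that capture or move heme, 2 of 7 rose and 1 fell, with a median of -0.028. Flvcr1, a heme exporter, rose by 0.56 and Cd163, the macrophage receptor for hemoglobin bound to haptoglobin, by 0.56 (limma adjusted p = 0.00784 and 0.0128). Flvcr1 did not pass with the mean of its probe sets (0.30) or with array 3 alone (0.56), and Cd163 did not without Pparg ldi/+ array 1 (0.51). Abcg2, an exporter of porphyrins, was called lower at -0.35, a call that ended without any single array other than wild-type array 2 and Pparg ldi/+ array 1 (-0.28 to -0.35), and with array 3 alone (-0.48). Of 13 red cell markers 7 had a probe set that names no other gene. Their summed signal was 354 to 581 in wild type and 527 to 772 in Pparg ldi/+. Of these Slc4a1 alone was bright enough to be tested (129 to 182 against 197 to 227, log2 0.44, limma adjusted p = 0.109), and Epb42 was at or under 32 on every array.

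In the export list a gene of the same kind as Cp went the other way. Of 5 tested, 4 rose (Slc40a1, Slc11a1, Cp and Hephl1) and 1 fell, with a median of 1.43, the value of Hephl1. Hephl1 was tested only through its Pparg ldi/+ signals, as its wild-type mean log2 of 7.41 was under the filter of 7.46. The gene that fell was Heph, which encodes hephaestin, a membrane-bound copper oxidase related to ceruloplasmin. Its signal was 2260, 2636 and 2713 in wild type and 520, 575 and 343 in Pparg ldi/+ (log2 -2.35, 5.11-fold, limma adjusted p = 2.56e-05). Array 3, with an epididymal sum in the wild-type range, was the lowest, and the cause of the fall was not tested. Hephl1, a further relative, was dim in wild type at 143 ± 49.6 and 427 ± 73.0 in Pparg ldi/+ (SD, n = 3; log2 1.43, limma adjusted p = 0.00221), and with array 3 alone it was 1.34 and did not pass (limma adjusted p = 0.0579).

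Genes of iron uptake and reduction fell in 5 and rose in 2 of 11, with a median of -0.29. Steap3, the endosomal iron reductase of the STEAP family, fell by 0.61 on the log2 scale (limma adjusted p = 0.00396), beside -0.45 for Steap4. The 2 that rose were Lcn2, which encodes lipocalin 2, a protein that binds bacterial iron carriers, and Slc39a14, a zinc and iron importer. Lcn2 was 1472, 296 and 2627 in wild type and 10107, 11787 and 10158 in Pparg ldi/+ (log2 3.29, SE 0.621, limma adjusted p = 0.00389). It was 2.42 without wild-type array 2, the lowest, and with array 3 alone 3.22, which did not pass (limma adjusted p = 0.0658). Slc39a14 was at 0.46 (limma adjusted p = 0.0288), and its call ended without wild-type array 2 (0.38) or 3 (0.46) or Pparg ldi/+ array 1 (0.50) or 2 (0.37), and with array 3 alone (0.35). The call of Steap3 ended with array 3 alone (-0.48). In iron storage 0 of 4 tested genes passed in limma, and 0 had an unadjusted p under 0.05. The 2 with the smallest p beside Fth1 were Pcbp2, an iron chaperone, at 0.10 and Ncoa4, the ferritin autophagy receptor, at -0.11. With the mean of its probe sets Pcbp2 was at 0.31 and passed (limma adjusted p = 0.0181).

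Of 8 genes of iron sensing and the hepcidin pathway, 3 fell, with a median of -0.40. Aco1, which encodes the cytosolic aconitase that binds iron-responsive elements of ferritin, ferroportin and transferrin receptor mRNAs as IRP1, went from 3289 ± 30.8 to 1433 ± 44.4 (SD, n = 3; log2 -1.18, limma adjusted p = 9.01e-06). Bmp6, a signal that induces hepcidin in liver, went from 820 ± 97.7 to 190 ± 66.9 (SD, n = 3; log2 -1.98, limma adjusted p = 0.000238). Both were as low on array 3, at 1485 for Aco1 and 120 for Bmp6. The hepcidin gene Hamp was too dim to be tested, at 51.3 to 143 in wild type and 83.2 to 101 in Pparg ldi/+.

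Mitochondrial iron and iron-sulphur cluster genes went both ways, with 5 of 19 higher, 4 lower and a median of 0.067. The 5 that rose were Ciapin1 (0.61), Nubp2 (0.44), Cisd2 (0.36), Mms19 (0.32) and Isca1 (0.22), and the call of each ended with array 3 alone (0.19 to 0.69). Nubp2 kept its call when single arrays were left out. That of Mms19 ended without each of the 6 arrays in turn (0.28 to 0.36), and that of Isca1 without each but wild-type array 1 (0.19 to 0.23). That of Ciapin1 ended without wild-type array 1 (0.54) or 3 (0.49) or Pparg ldi/+ array 1 (0.51) or 3 (0.56), and that of Cisd2 without wild-type array 1 (0.29) or Pparg ldi/+ array 1 (0.36) or 3 (0.33). The 4 that fell were Cisd1, an outer membrane iron-sulphur protein (log2 -0.67, limma adjusted p = 0.000422), the scaffold gene Iscu (log2 -0.35, limma adjusted p = 0.00292), Isca2 (-0.30) and Glrx5 (-0.29). The calls of Isca2 and Glrx5 ended when single arrays were left out, without wild-type array 1 (-0.27 and -0.25) and Pparg ldi/+ array 3 (-0.27 and -0.29) for both, without wild-type array 2 (-0.27) and Pparg ldi/+ array 1 (-0.31) for Isca2, and without Pparg ldi/+ array 2 (-0.27) for Glrx5. With array 3 alone the calls of Iscu (-0.38), Isca2 (-0.37) and Glrx5 (-0.30) ended.

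**Figure D4:**
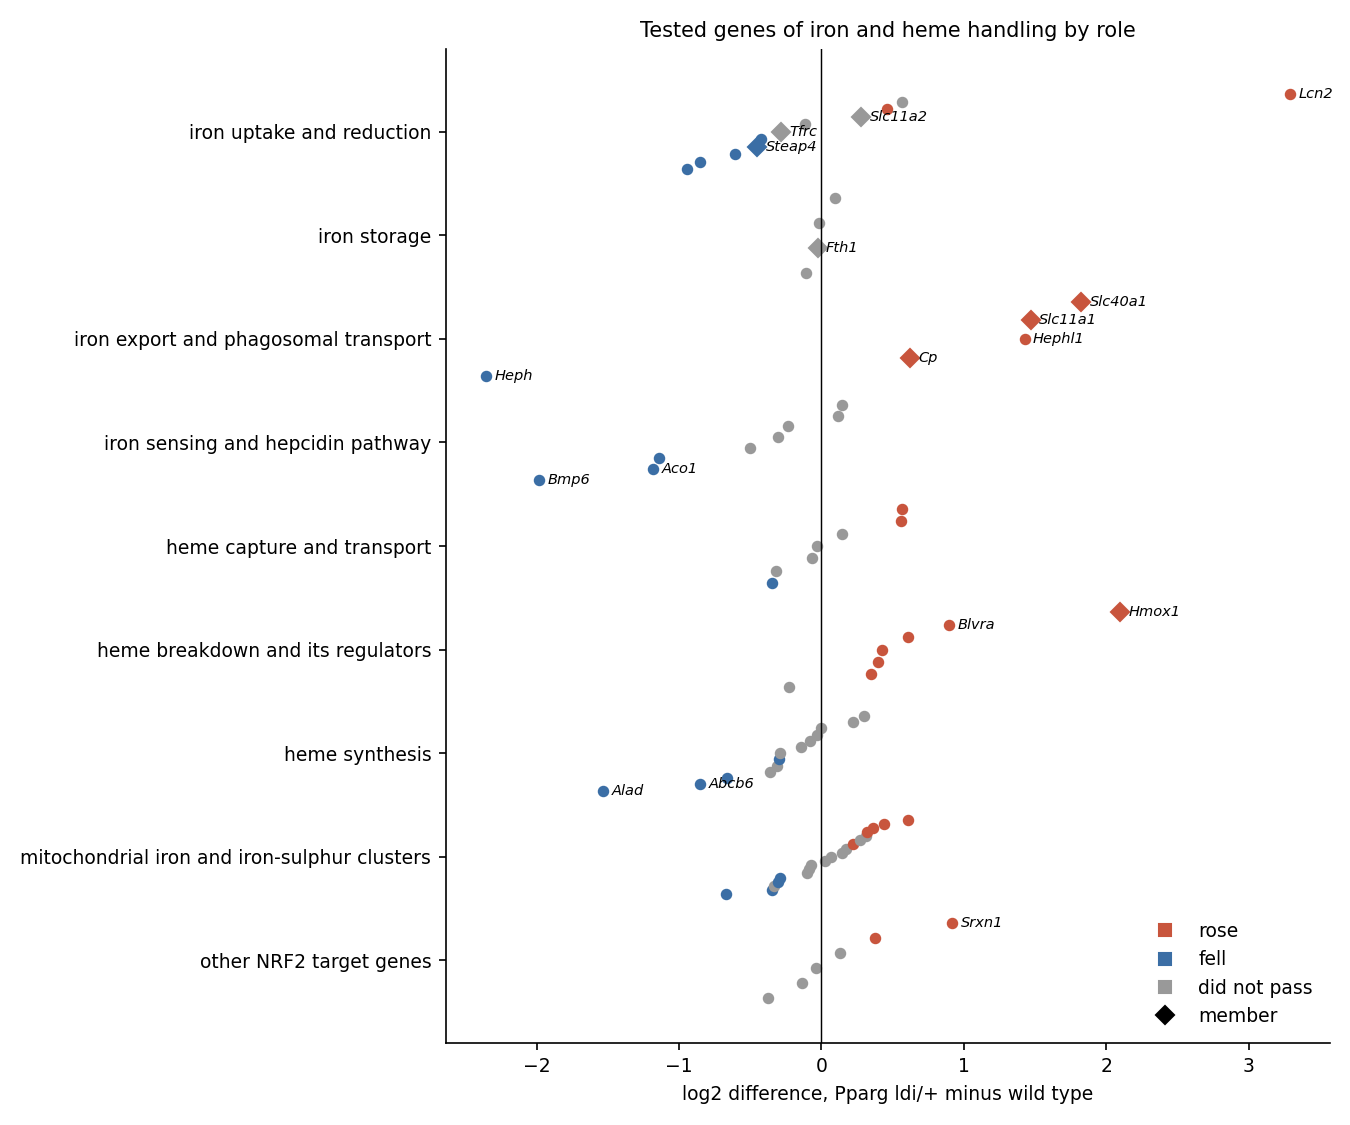
Log2 difference (Pparg ldi/+ minus wild type) of every tested gene of the 9 lists, 1 point a gene; diamonds are the 8 members, red rose, blue fell and grey did not pass. Hmox1, Slc40a1 and Slc11a1 lie to the right with Lcn2, and Heph and Bmp6 lie furthest to the left.

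The genes whose pattern over the 6 arrays was most like that of Hmox1 were Gas2l3, Cd84 and Clec4d, by the root mean square difference of log2 values centred on each gene's mean. The distances were 0.141, 0.157 and 0.177. Cd84, a leukocyte surface receptor, shares the higher wild-type array 1 and the highest Pparg ldi/+ array 3, with 605, 434 and 313 against 1833, 1590 and 2386. For Steap4 they were Evi5l, Lrrc17 and Cbs, at distances of 0.039, 0.041 and 0.045. These names are a description, and Cd84 is also among the 25 macrophage markers. Gas2l3 in wild type (mean log2 7.19) and Cbs in Pparg ldi/+ (7.34) were under the filter of 7.46. Each was tested only through its brighter group.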

How the data were processed

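The authors' deposited values are Affymetrix intensities for 45101 probe sets on 6 arrays; per the submitters' processing notes of 2 of the 6 samples they are MAS5 values. Not given in the sources used here are its version, its scaling target and its calls of presence. Array medians were 59.2 to 69.4, and 2 values, on Pparg ldi/+ array 3, were 0. Each array was scaled to a 2% trimmed mean of 500, and log2(signal + 32) was taken. Of the probe sets that are not controls, 34945 had 1 symbol in the platform annotation, 932 several and 9160 none, and 64 controls were left out. Symbols were updated through gene numbers for 34741 probe sets.

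A gene was read through its probe set of highest mean, with no x_at set where another existed. Those with a mean log2 under 7.46, the median of all probe sets, were not tested. The genotypes were compared with limma 3.58.1 (R 4.3.3), eBayes with a trend, two-sided, with Benjamini-Hochberg adjustment over 11201 genes, and again over 22519 probe sets. On simulated data of 11201 genes, this comparison recovered 50.7% of genes changed by 0.5 on the log2 scale, 94.0% of those changed by 1 and 100% of those changed by 2, with 10 false calls among 11001. Only 67, 67 and 66 genes were changed by these sizes, with noise independent between genes and arrays. In the data 32.7% of genes were called, so these rates need not hold there.

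Members, gene lists, marker lists and motifs were chosen with earlier results of these data known. Beside the members and Pparg, the genes named are, in each list, the 2 tested genes with the smallest p, any called gene against the direction of most called genes, and the 3 genes most like the members with the largest rise and fall. Mertk, S100a8, Mmp9, Csf3r, Slc4a1, Epb42, Hba-a1, Alas2, the hepcidin gene and the 5 mitochondrial genes that rose were named after their values were seen. So were Hmox2, Blvrb, Bach1 and Keap1 of the heme breakdown list, and the adipocyte markers Fabp4, Lpl, Cd36, Dgat2 and Pnpla2. Alternatives were other offsets, scalings, filters, variance models, probe set rules, a threshold of 0.01, a replicate block, leaving out each array, and Pparg ldi/+ array 3 alone.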

Additional observations from a re-analysis of the deposited data

How the results depend on the processing

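Across 19 alternatives Hmox1, Slc40a1 and Slc11a1 kept their direction and call, at 1.87 to 2.42, 1.62 to 2.12 and 1.41 to 1.54 on the log2 scale. Cp lost its call in 10 of the 19 (0.23 to 0.98, limma adjusted p 0.00422 to 0.588) and Steap4 in 2 of them (-0.62 to -0.33, limma adjusted p 0.00305 to 0.0641). Slc11a2 passed in none of the 19 (limma adjusted p 0.0521 to 0.605). At a threshold of 0.01, 1085 genes rose and 1153 fell, and 11 of the wider list went each way. With Pparg ldi/+ represented by array 3 alone, which is assumed to vary like the wild type, 730 genes rose and 886 fell, 6 and 8 of them in the wider list. The members that fell numbered 0 under both, where limma gave an unadjusted p under 0.05 to 1 lower member over all arrays and to 1 with array 3 alone. Leaving out each array gave 1290 to 1706 higher and 1447 to 1678 lower genes, 3 to 4 higher and 1 to 2 lower members, 5 to 9 higher and 2 to 3 lower member probe sets, and 14 to 18 each way in the wider list. The count of 2 came without wild-type array 3 and that of 5 without Pparg ldi/+ array 1. Fth1, never called, changed sign with quantile normalisation (0.013), unscaled (0.027), and without wild-type array 1 (0.013) or Pparg ldi/+ array 3 (0.022), its range without single arrays being -0.059 to 0.022, and Tfrc with the mean of its probe sets (0.025); the cause was not tested. Same-numbered arrays did not deviate together (correlations over 11201 genes of -0.127, -0.0857 and -0.0945), and with the number as a replicate block 1568 genes rose and 1598 fell, with 3 members higher, 1 lower and Cp lost. The signal over background limits dim genes, and 3 mice a group limit the precision of all.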

Other observations

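Alas2, the heme synthesis enzyme best known from red cell precursors, passed the filter on dim probe sets, while the globin gene Hba-a1 did not. Alas2 gave 1778, 1071 and 1925 in wild type and 1258, 1136 and 1333 in Pparg ldi/+ (log2 -0.31, limma adjusted p = 0.269). The groups overlapped. Hba-a1 gave 26.0 to 109 in wild type and 70.7 to 137 in Pparg ldi/+. Probe sets that name several genes were not read, and Hbb-b1, Hbb-bs and Hbb-bt had no value. The level of globin RNA is therefore not known from these values.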
